A study of Brassica napus with 22 samples.

Results

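The embryo proper and the outer seed coat of Brassica napus (oilseed rape), cultivar Topas, were compared at the globular stage, when the embryo is still a sphere of dividing cells. Plants were grown under long days. The labels name the embryo proper as filial tissue, formed by fertilisation, and the outer seed coat as maternal tissue, formed from the integument of the mother plant. Both came from globular seeds, and 7 compartments were separated by laser microdissection, a method inferred here from letters in the table's file name. No treatment, mutant or transgene is named for any group. The labels list 2 libraries for each of these tissues, 4 of 22 in the series, and the table holds 1 combined column per tissue. Of 100447 genes with values, the 46496 with at least 1 FPKM (fragments scaled to transcript length and library size, rounded by the authors to whole numbers) in either tissue were compared. With 1 column per tissue there is no spread between replicates, so every difference below is a size without a test. A gene was counted as higher in a tissue when its value plus 1 was at least 2-fold that of the other tissue plus 1 and the higher value was at least 5 FPKM.

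The globular embryo sets up its root and shoot poles, its outer cell layer (protoderm) and its inner tissues, under transcription factors such as LEC1, the WOX and PLETHORA families, and the flow of auxin. The outer seed coat derives from the outer integument. In the mustard family its epidermis later fills with mucilage, a pectin gel released when the seed is wetted, and its inner cells store starch for a time. Both tissues carry an epidermis with a cuticle, the waxy layer of cutin and wax that seals a plant surface. Roles given here for genes come mainly from Arabidopsis, whose symbols are used for the rapeseed copies that the authors matched to each Arabidopsis protein. Where a symbol stands without a gene ID, its values are sums of FPKM over all copies in the table. Where 2 values follow a gene, the embryo proper comes first and the outer seed coat second. Most gene IDs carry the subgenome (A or C) and the chromosome, those with nn in its place lie on sequence not placed on a chromosome, and gene positions come from the authors' table, whose genome build is not given in the sources used here.

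Markers of each tissue lay on the side their labels give. The embryo factors LEC1, LEC2, FUS3, ABI3 and WOX2 summed to 541 FPKM over 19 copies in the embryo proper, with 14 copies at 1 FPKM or more, and to 1 FPKM in the outer seed coat. Markers of the outer seed coat (INO, GL2, TTG2, MUM4 and MYB61, 22 copies) summed to 390 FPKM there, with 18 copies at 1 FPKM or more, and to 7 FPKM in the embryo proper. The inner seed coat held still more of that second list, 721 FPKM, through MYB61, which summed to 699 FPKM there and 95 in the outer seed coat. MUM4 in sum was highest in the micropylar endosperm, where its copy BnaC03g69670D stood at 35 FPKM, against 4 in the outer seed coat. INO, GL2 and TTG2 were each highest in the outer seed coat of the 7 compartments, at 154, 47 and 61 FPKM, against 0, 0 and 1 in the embryo proper.

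Markers of other cell types were low in both columns apart from a xylem protease. Endosperm markers summed to 17 FPKM over 58 copies in the embryo proper and 2 in the outer seed coat, against 2453 in the peripheral endosperm. Inner seed coat markers summed to 3 and 16 FPKM, against 1150 in the inner seed coat, nearly all from TT16, and 1832 in the chalazal proliferating tissue. The suspensor markers WOX8 and WOX9 summed to 32 FPKM in the embryo proper, all of it from WOX9, and 0 in the outer seed coat. WOX8 was at 0 in both columns, and its copy BnaAnng35160D stood at 77 FPKM in the micropylar endosperm. Vascular markers summed to 77 FPKM in the embryo proper and 612 in the outer seed coat, nearly all of the latter from a single copy of the xylem cysteine peptidase XCP2, BnaC04g09050D, at 56 and 592 FPKM. The phloem carrier SUC2 stood at 6 and 0 FPKM. Of 45 genes that reached 500 FPKM in the outer seed coat and were at least 10-fold lower in the peripheral and chalazal endosperm, the value in the embryo proper was a median 1.77% (range 0% to 44.2%) of that in the coat. What part RNA from neighbouring tissue has in these low values was not tested.

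The columns differed in makeup. The embryo proper summed to 979880 FPKM, of which genes annotated as rRNA or matched to organelle loci took 16.0%, and the outer seed coat to 760254 FPKM, of which they took 7.24%. Outside that set, the undescribed gene BnaC02g36110D held the highest value in both columns, 123547 and 21065 FPKM, which is 12.6% and 2.77% of the column sums. It was listed at 0 in the whole seed. That column also differed in makeup, with rRNA and organelle genes at 0.0076%, so its levels compare only loosely with those of the tissues. Of 132 rRNA or organelle genes compared, 78 were higher in the embryo proper and 6 in the coat. They were kept out of the shared set and the homeolog pairs below. Reference genes of the cytoskeleton and of protein synthesis were close as deposited: of 69 copies compared, 9 were higher in the embryo proper, 12 in the outer seed coat and 48 in neither, with a median difference of -0.11 log2 units. Under each of the 3 scalings described below they leaned to the coat. The counts were 7 and 21 for the common median (median difference -0.53), 10 and 18 for quantile (-0.47), and 9 and 20 for the common sum (-0.34). Actin ACT7 summed to 512 FPKM in the embryo proper and 754 in the outer seed coat, and elongation factor EF1A to 4975 and 3211.

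Of the 46496 genes, 10904 (23.5%) were higher in the embryo proper and 9082 (19.5%) in the outer seed coat, while 26510 passed the rule in neither direction. The median difference of log2(FPKM + 1), embryo proper minus outer seed coat, was 0 over all compared genes and 0.38 over the 28964 genes at 1 FPKM or more in both. The balance of directions depended on how the columns were scaled: 54.6% of the genes counted were higher in the embryo proper as deposited, and 42.0% (7537 against 10390) once that median of shared genes was set to 0, which shifts the median of all genes by -0.33. Of the genes higher in the outer seed coat, 4325 (47.6%) were listed at 0 in the embryo proper. Of those higher in the embryo proper, 2259 (20.7%) were listed at 0 in the coat. Differences of at least 8-fold numbered 2217 toward the embryo proper and 3819 toward the outer seed coat, and those of at least 32-fold 291 and 719. Just inside the 2-fold line, from 1.0 to 1.1 log2 units, lay 1079 and 629 genes, and just outside it, from 0.9 to 1.0, lay 287 and 198 genes at 5 FPKM or more. Whole-number values can place a gene exactly on the line, as with BnaC02g07160D at 19 and 9 FPKM. How many lie there was not counted.

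**Figure D1:**
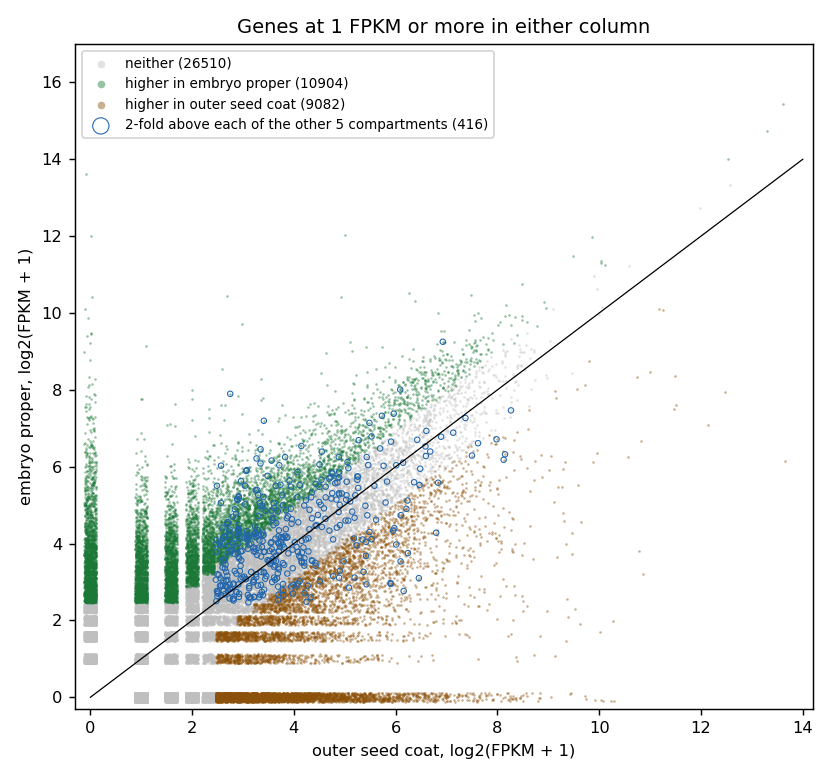
Each point is a gene at 1 FPKM or more in either column, with log2(FPKM + 1) in the outer seed coat across and in the embryo proper upward, jittered slightly so that whole-number values separate; the line marks equal values. Green marks the 10904 genes higher in the embryo proper, brown the 9082 higher in the outer seed coat, grey the 26510 in neither, and blue rings the 416 genes that stand at 5 FPKM or more in both and 2-fold above each of the other 5 compartments.

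Grouped by function, embryo regulators (80.6% of copies), DNA replication (78.2%), ribosome biogenesis (67.3%) and mitosis (59.3%) had most of their copies higher in the embryo proper. Seed coat regulators, jasmonate, heat and wound genes and flavonoid genes had 52.8%, 52.7% and 50.0% of their copies higher in the outer seed coat. Against a median difference of 0 over all compared genes, the list medians in log2 units were 3.73 for embryo regulators, 1.71 for DNA replication, 1.54 for mitosis and cytokinesis, and 1.38 each for ribosome biogenesis and auxin. They were -2.32 for seed coat regulators, -2.16 for flavonoid genes, -2 for jasmonate, heat and wound genes and -1 for photosynthesis. Cuticle genes (20.5%), wall genes (25%) and aquaporins (26.5%) had embryo-side shares near the 23.5% of all genes and coat-side shares of 28.9%, 34.1% and 32.7%, and epidermis genes had 42.7% on the embryo side and 14.7% on the coat side. Embryo-side and coat-side shares were 50.6% and 12.6% for auxin, 51.1% and 10.6% for organ polarity, and 45.7% and 4.35% for cell cycle entry. They were 48.1% and 6.49% for DNA methylation and Polycomb, 43.8% and 9.52% for reserves and oil, and 5.58% and 41.4% for photosynthesis. In bulk tissue, fewer cells of a type and less RNA per cell cannot be told apart.

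**Figure D2:**
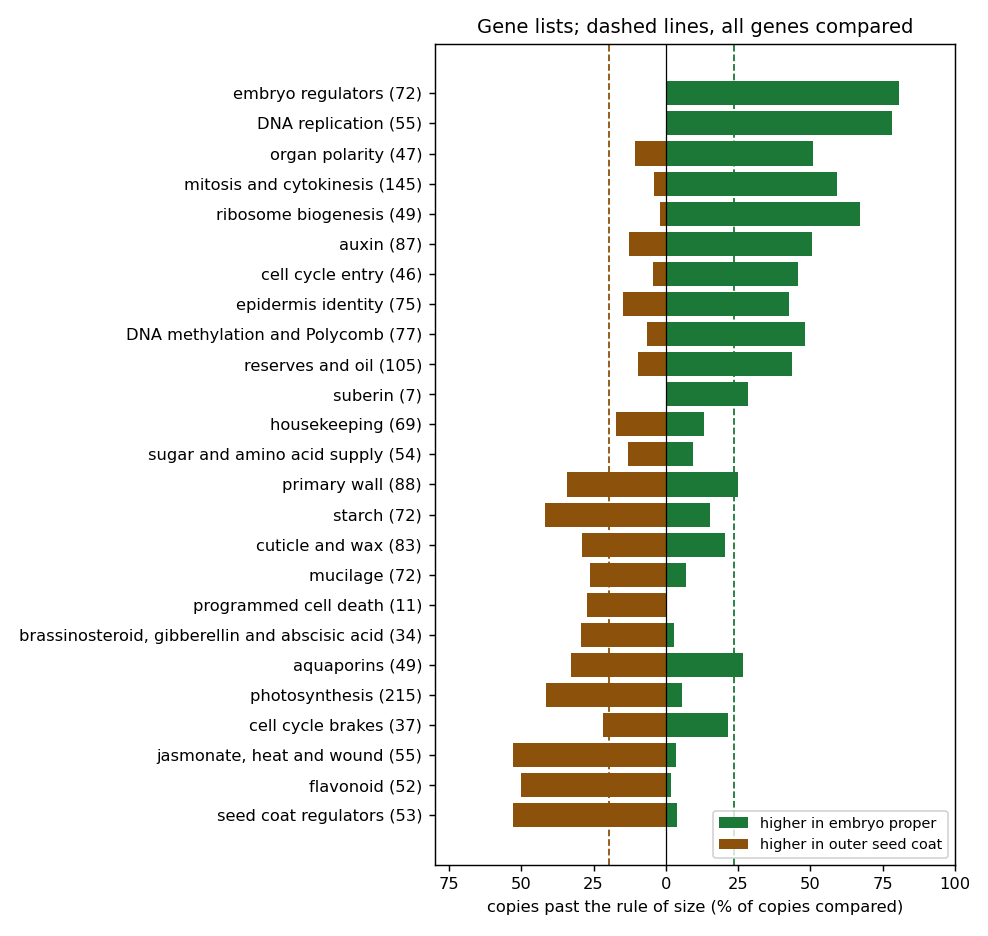
Bars give the percentage of compared copies in each gene list (number in brackets) that were higher in the embryo proper (green, right) or in the outer seed coat (brown, left); dashed lines mark the 23.5% and 19.5% of all compared genes. Embryo regulators reach 80.6% on the embryo side with 0 copies on the other, and seed coat regulators 52.8% on the coat side.

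Of 72 copies of embryo regulators compared, 58 were higher in the embryo proper and 0 in the outer seed coat, with a median difference of 3.73. LEC1, a subunit of a CCAAT-binding factor that keeps embryo identity, summed to 274 FPKM in the embryo proper and 0 in the outer seed coat. Its copies BnaA07g10770D (chromosome A07, bases 10129311 to 10131376) and BnaC07g14150D stood at 164 and 95 FPKM in the embryo proper. The B3-domain factors FUS3 and ABI3, which later direct seed maturation, summed to 57 and 79 FPKM in the embryo proper and 0 in the coat. These 3 factors were therefore detected in the column of the globular embryo. LEC2 was detected there too, but not always at its highest. Its copy BnaA07g08500D stood at 14 FPKM in the embryo proper and 43 in the micropylar endosperm. Its copy BnaC07g10500D stood at 19 in each of these, and BnaA09g27380D at 6 and 0. The LEC1 copy BnaC08g20060D was at 0 FPKM in the embryo proper and 35 in the micropylar endosperm.

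Factors of the root and shoot poles had the same pattern. WOX2, a homeobox factor of the apical embryo, summed to 92 FPKM in the embryo proper, and PLT2 and BBM, AP2 factors of the root pole and of embryo identity, to 63 and 169 FPKM; each was listed at 0 in the outer seed coat. WOX5, which marks the organising centre of the root stem cells, stood at 52 and 3 FPKM. The ground tissue factors SCR and SHR summed to 72 and 41 FPKM in the embryo proper and to 6 and 0 in the coat. Among shoot and cotyledon factors, CUC3, a boundary factor, stood at 50 FPKM and DRNL, which acts in cotyledon formation, at 47, both at 0 in the coat, while the meristem factor STM was low at 11 FPKM. Of the root patterning genes, LHW, a partner of TMO5 in vascular division, was detected on both sides, at 98 and 28 FPKM.

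Auxin genes followed, with 44 of 87 copies higher in the embryo proper and 11 in the outer seed coat. Carriers were the most one-sided: 17 of 22 copies were higher in the embryo proper and 0 in the coat. The efflux carrier PIN4 summed to 136 FPKM in the embryo proper and 4 in the coat, and the influx carrier LAX2 to 64 and 0. The response factor MP (ARF5), needed for root and vascular initiation in the embryo, summed to 261 and 9 FPKM, and ETT (ARF3) to 138 and 3. Synthesis genes divided by member. TAA1, a tryptophan aminotransferase, stood at 68 FPKM in the embryo proper and 0 in the coat, and its relative TAR2 at 0 and 20. YUC3, a flavin monooxygenase of the next step, stood at 43 and 0, and YUC6 at 3 and 13. Of the response factors, ARF17 (3 and 26 FPKM) and ARF10 (1 and 11) were higher in the coat.

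Organ polarity genes showed a division within a single family. Of 47 copies, 24 were higher in the embryo proper and 5 in the outer seed coat. HD-ZIP III factors, which mark the adaxial (upper) side of organs, had 13 of 20 copies higher in the embryo proper and 0 in the coat, with PHB at 60 and 0 FPKM and PHV at 78 and 2. Of the YABBY factors, which mark the abaxial (lower) side, FIL summed to 189 FPKM in the embryo proper and 0 in the coat, and INO, the member that shapes the outer integument, to 0 and 154. All 4 INO copies were on the coat side, from 13 FPKM in BnaC07g13110D to 79 in BnaA07g09980D (chromosome A07, bases 9576163 to 9578141), and at 0 in the embryo proper. Among KANADI factors, KAN1 and KAN2 stood at 37 and 24 FPKM in the embryo proper against 8 and 1 in the coat, and KAN3 at 0 against 15.

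**Figure D3:**
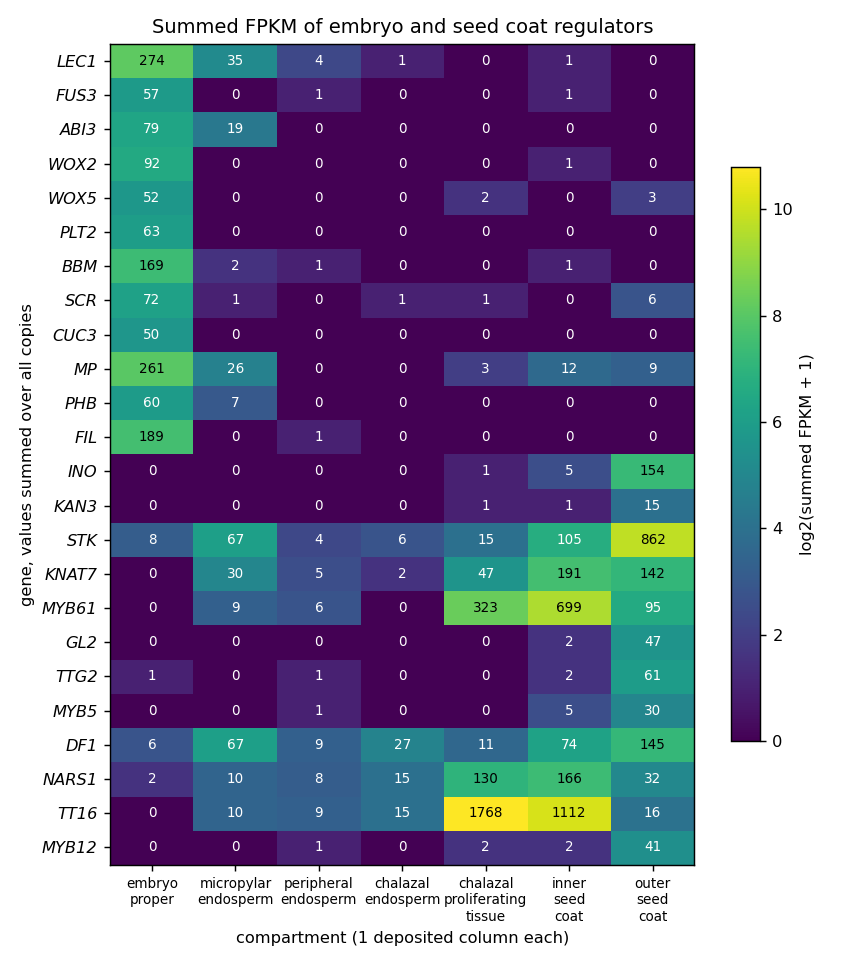
Each cell gives the FPKM of a regulator summed over its copies (rows) in each of the 7 compartments (columns), coloured by log2(summed FPKM + 1). LEC2 is not drawn. From LEC1 to FIL the embryo proper holds the highest value of its row, from 50 FPKM (CUC3) to 274 (LEC1); INO, KAN3, STK, GL2, TTG2, MYB5, DF1 and MYB12 are highest in the outer seed coat, KNAT7, MYB61 and NARS1 in the inner seed coat, and TT16 in the chalazal proliferating tissue.

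Genes of DNA replication were higher in the embryo proper in 43 of 55 copies and in the coat in 0, with a median difference of 1.71. The replicative helicase subunits MCM2 to MCM7 summed to between 53 (MCM4) and 146 FPKM (MCM3) in the embryo proper and between 16 (MCM2) and 59 (MCM3) in the coat. PCNA1, the clamp that holds the polymerase on DNA, stood at 520 and 105 FPKM, and TSO2, a subunit of the enzyme that makes deoxynucleotides, at 276 and 113. These replication genes were detected on both sides. CDC6, an origin-licensing factor, differed more, at 34 and 1 FPKM.

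Mitosis and cytokinesis genes had 86 of 145 copies higher in the embryo proper and 6 higher in the coat. KNOLLE, the syntaxin that fuses vesicles into the cell plate, summed to 220 FPKM in the embryo proper and 58 in the coat, the mitotic kinase AUR1 to 181 and 63, and the plant-specific mitotic kinase gene CDKB2;1 to 153 and 52. The centromeric histone CENH3 stood at 58 and 4 FPKM, and the kinesin HIK at 50 and 9. In 53 copies neither side passed the rule, among them the copy BnaC01g04930D of the checkpoint activator CDC20.1 at 42 and 40 FPKM. Among coat-side exceptions, the copy BnaC05g25280D of the cyclin CYCA1;1 stood at 3 and 24 FPKM, while its gene summed to 86 and 46. With values summed over copies, AUR2, a relative of AUR1, was on the coat side at a low 0 and 5 FPKM.

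Genes of cell cycle entry had 21 of 46 copies higher in the embryo proper and 2 in the coat. CYCD6;1, a D-type cyclin of formative divisions, stood at 26 and 0 FPKM, and RBR1, the retinoblastoma protein that holds cells before replication, at 58 and 12. CYCD3;3, the D-type cyclin of highest level on the list, was detected on both sides at 347 and 157 FPKM. Cell cycle brakes had 8 of 37 copies (21.6%) higher on each side, near the 23.5% and 19.5% of all genes. Of the inhibitors of cyclin-dependent kinases, KRP3 stood at 52 and 15 FPKM, while SIM, which promotes endoreduplication (DNA copying without division), stood at 4 and 22. CCS52A1, an activator of the anaphase-promoting complex with a role in endoreduplication, was at 1 and 35 FPKM, and its relative CCS52A2 at 7 and 3. The median of the CDK inhibitors was 0.22 as deposited and -0.13 when the columns were scaled to a common median, so no direction is given for them.

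DNA methylation and Polycomb genes had 37 of 77 copies higher in the embryo proper and 5 in the outer seed coat. The maintenance group, which copies methylation after replication, had 15 of 23 and 0. DDM1, a chromatin remodeller needed for methylation, stood at 197 FPKM in the embryo proper and 14 in the coat, VIM1 at 159 and 29, and the methyltransferase MET1 at 54 and 20. In the RNA-directed pathway, AGO4, which carries the guiding small RNAs, summed to 554 and 104 FPKM, whereas AGO5 summed to 8 and 110. The demethylase DML3 was at 0 and 13 FPKM. Of the Polycomb subunits, CLF, a histone methyltransferase, stood at 25 and 4 FPKM, and VRN2 at 33 and 32.

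Nucleolar genes of ribosome biogenesis were higher in the embryo proper in 33 of 49 copies and in the coat in 1. NOP56 summed to 659 FPKM in the embryo proper and 173 in the coat, FIB2 (fibrillarin) to 601 and 201, and NUC1 (nucleolin) to 482 and 232. Ribosomal proteins as a family had 522 of 1083 copies (48.2%) higher in the embryo proper and 108 (9.97%) in the coat. They made up 13.5% of all FPKM in the embryo column and 8.40% in the coat column. Histones had 94 of 219 and 16, kinesin motors 27 of 53 and 1, and pentatricopeptide repeat proteins, which process organelle RNA, 84 (20.9%) and 15 (3.73%). The last 2 shares are both below those of all genes, 23.5% and 19.5%. After scaling to a common median these counts became 338 and 141 for ribosomal proteins, 59 and 26 for histones, 17 and 5 for kinesin motors and 53 and 16 for pentatricopeptide repeat proteins.

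Seed reserve and oil genes leaned to the embryo proper, with 46 of 105 copies higher there and 10 in the coat. WRI1, the AP2 factor that turns on fatty acid synthesis in seeds, summed to 106 FPKM in the embryo proper and 5 in the outer seed coat, and its copies BnaA07g16350D and BnaC06g15140D to 43 and 39 FPKM against 0. Plastid fatty acid synthesis, on which every membrane and cuticle draws, was closer: 26 of 67 copies were higher in the embryo proper, 6 in the coat and 35 in neither. The condensing enzyme KAS1 stood at 224 and 79 FPKM, the carboxylase subunit BCCP2 at 157 and 51, and BCCP1 at 115 and 151. FAD3, which makes linolenic acid, stood at 76 FPKM in the embryo proper and 1 in the coat, while FAD2, which makes linoleic acid, stood at 72 and 320. Storage proteins and oleosins were low, with OLEO1 at 38 and 6 FPKM and the albumin SESA4 at 34 and 2. SESA1 stood at 12 and 31 FPKM. The micropylar endosperm held far more of both albumins, 591 FPKM of SESA4 and 642 of SESA1, and the part of that neighbour in either column was not tested.

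Epidermis identity genes were found on both sides. Of 75 copies, 32 were higher in the embryo proper, 11 in the outer seed coat and 32 in neither. The HD-ZIP IV factors ATML1 and PDF2, which specify the protoderm, summed to 79 and 83 FPKM in the embryo proper and 24 each in the coat. The receptor kinase ACR4, which acts in the outer cell layer, stood at 35 and 19 FPKM. PDF1, a proline-rich protein of the protoderm, was high in both, at 341 and 458 FPKM. Other members went opposite ways: GL2, a factor of epidermal cell fate in the seed coat, stood at 0 and 47 FPKM, and the receptors GSO1 and GSO2, which help seal the embryo surface, at 17 and 44 FPKM in the embryo proper and 0 and 5 in the coat. HDG11 and ANL2 were highest elsewhere, at 352 and 476 FPKM in the chalazal endosperm.

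Cuticle and wax genes leaned to the outer seed coat, with 24 of 83 copies higher there and 17 in the embryo proper. Counted by copies, enzymes and regulators differed. Of the wax and elongation enzymes, 11 of 30 copies were higher in the coat and 2 in the embryo proper, and of the cutin enzymes 7 of 19 and 1. Of the export proteins, 4 of 15 were higher in the coat and 7 in the embryo proper, and of the regulators 2 of 19 and 7. With values summed over copies, export and regulator loci had no lean: 1 of 5 and 2 of 6 were higher on each side. Of the wax and elongation loci, 5 of 10 were then higher in the coat and 2 in the embryo proper, and of the cutin loci 2 of 8 and 1. CER6, the condensing enzyme for very long wax chains, summed to 15 FPKM in the embryo proper and 207 in the coat. The cutin acyltransferases GPAT4 and GPAT6 stood at 6 and 2 FPKM in the embryo proper and 100 and 25 in the coat. The acyltransferase DCR, which also acts in cutin formation, was the most abundant gene on the list in both columns, at 412 and 774 FPKM. BDG, a hydrolase of the cuticle, went the other way at 44 and 9 FPKM, and so did the wax regulator MYB96 at 75 and 16 and the lipid transfer protein LTPG2 at 85 and 3. LTPG1, another lipid transfer protein on cell surfaces, summed to a similar level on both sides, 185 and 140 FPKM, but through different copies: BnaA09g27660D stood at 71 and 0, BnaCnng36210D at 56 and 0 and BnaC07g11810D at 38 and 0.

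**Figure D4:**
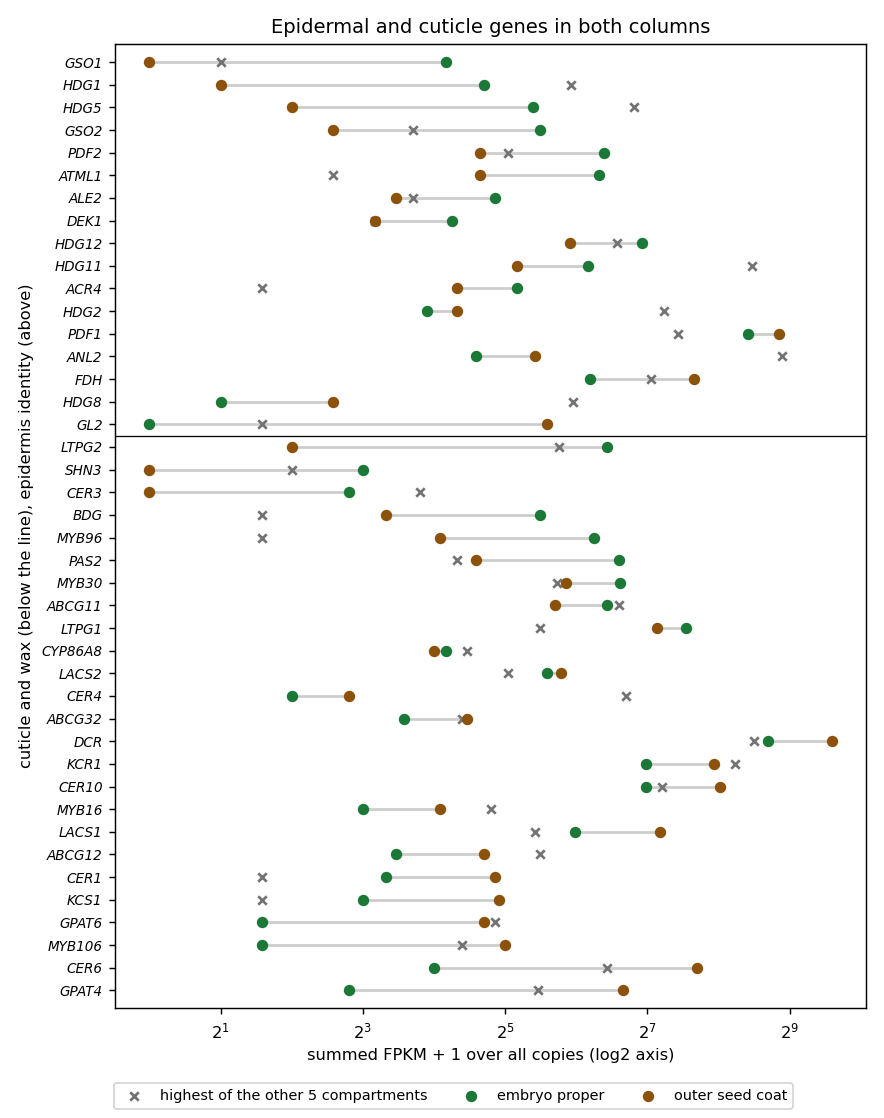
Each row is a gene of epidermis identity (above the line) or of cuticle and wax (below it) at 5 FPKM or more in either column, summed over its copies; points give the summed FPKM plus 1 in the embryo proper (green) and outer seed coat (brown) on a log2 axis, and crosses the highest of the other 5 compartments. PDF1 (341 and 458 FPKM) and DCR (412 and 774) are high in both, GPAT4 (6 and 100) and CER6 (15 and 207) lie on the coat side, and GSO1 (17 and 0) and LTPG2 (85 and 3) on the embryo side.

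Genes that set both tissues apart from the rest of the seed were counted by a rule chosen after the values were seen: at least 5 FPKM in both and 2-fold above each of the other 5 compartments. There were 416 such genes (0.895% of those compared). Of them, 110 were higher in the embryo proper, 47 in the outer seed coat and 259 in neither. The lists held 45 of them, 10 from cuticle and wax, 7 from epidermis identity and 7 from mitosis and cytokinesis. The PDF1 copies BnaA05g02980D (chromosome A05, bases 1615395 to 1617067; 111 and 239 FPKM) and BnaC04g52630D (72 and 172), and the DCR copy BnaA02g32750D (89 and 93) were among the most abundant. LACS1, an acyl-CoA synthetase of wax and cutin, was present as BnaCnng60230D at 46 and 90 FPKM, and LACS2, its partner in cutin, as BnaC05g51350D at 20 and 24. The exporter ABCG11 was represented by BnaC05g13800D, at 41 and 18 FPKM.

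The shared set also held genes of division. KNOLLE copies BnaA06g04950D and BnaC08g13620D stood at 72 and 47 FPKM in the embryo proper and 13 and 14 in the coat, and the cyclin copy BnaA02g03470D of CYCA1;1 at 52 and 11. Outside those lists, the jasmonate repressor JAZ10 copy BnaC09g43860D stood at 125 and 140 FPKM, the expansin EXPA15 copy BnaC07g22080D, which loosens walls, at 69 and 53, and the plastid pyruvate kinase copy BnaCnng37100D at 70 and 60. Unlisted genes of high level, named after their values were seen, included the tubulin BnaC03g56170D (117 and 103 FPKM) and the hydrolase BnaA05g31610D (184 and 321). By the same rule the embryo proper shared 797 genes with the micropylar endosperm and the outer seed coat 675 with the inner seed coat, and 451 with the micropylar endosperm. As a description, Pearson's r of log2(FPKM + 1) was taken over the genes with values, without rRNA and organelle genes. Genes detected in neither column of a pair were included, so r does not describe the compared genes alone. Between the embryo proper and the outer seed coat r was 0.70, the highest of the 6 that the embryo proper has. The outer seed coat had 0.86 with the inner seed coat and 0.77 with the chalazal proliferating tissue. The columns differ in rRNA share and their depths are unknown.

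Of 53 copies of seed coat regulators, 28 were higher in the coat and 2 in the embryo proper. STK, a MADS-box factor of ovules and seed coats, had the highest level, at 8 FPKM in the embryo proper and 862 in the coat, with 750 of the latter in BnaAnng39120D. KNAT7, a homeobox factor of wall formation, summed to 0 and 142 FPKM and DF1, a trihelix factor of mucilage, to 6 and 145. TTG2, a WRKY factor of coat epidermis and pigment, stood at 1 and 61 FPKM and MYB5 at 0 and 30. Factors that act in many tissues did not separate: AP2 stood at 86 and 152 FPKM, the WD40 protein TTG1 at 11 and 9 and the corepressor LUH at 148 and 142.

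Mucilage genes had 19 of 72 copies (26.4%) higher in the coat and 5 (6.94%) in the embryo proper. The shares of all compared genes were 19.5% and 23.5%. COBL2, which helps deposit cellulose in mucilage, summed to 8 FPKM in the embryo proper and 133 in the coat, and BnaAnng33230D alone to 0 and 114. The rhamnose synthase MUM4, which supplies the main mucilage pectin, stood at 6 and 33 FPKM and the glucomannan synthase CSLA2 at 24 and 50. Pectin modifiers were on the other side or low: the subtilase SBT1.7 summed to 138 FPKM in the embryo proper and 42 in the coat, against 284 in the chalazal proliferating tissue.

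Wall genes divided by enzyme. The cellulose synthase complex had 15 of 29 copies higher in the coat and 1 in the embryo proper, with CESA1, CESA3 and CESA6, its primary wall catalytic subunits, at 36, 46 and 31 FPKM in the embryo proper and 147, 176 and 91 in the coat. Expansins had 10 of 28 higher in the embryo proper and 3 in the coat, led by EXPA15 at 454 and 60 FPKM. Xyloglucan transferases, which cut and rejoin wall chains, had 11 of 31 and 12. Among them XTH9 stood at 213 and 13 FPKM and XTH4 at 78 and 15, while XTH24 stood at 35 and 770, XTH33 at 0 and 151 and XTH27 at 20 and 106. The XTH24 copy BnaC07g42500D (chromosome C07, bases 41922785 to 41924191) alone was at 0 and 683 FPKM.

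Flavonoid genes had 26 of 52 copies higher in the coat and 1 in the embryo proper. Chalcone synthase (CHS), the entry enzyme, summed to 5 FPKM in the embryo proper and 151 in the coat, TT7, a hydroxylase of the branch to quercetin, to 1 and 124, and FLS1, which makes flavonols, to 1 and 86. MYB12, a factor that turns on flavonol genes, stood at 0 and 41 FPKM. Genes of the proanthocyanidin side were low in the coat by comparison: the transporter TT19 stood at 5 FPKM and the regulator TT16 at 16, against 80 and 1112 in the inner seed coat. The TT12 copies BnaA07g18120D and BnaC06g17050D were at 0 against 25 and 11. The other inner seed coat markers, BAN and AHA10, did not share that contrast. All their copies were at 0 FPKM in the outer seed coat and at most 1 in the inner.

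Photosynthesis genes had 89 of 215 copies higher in the coat and 12 higher in the embryo proper. The antenna protein LHCB1.3 summed to 191 FPKM in the embryo proper and 510 in the coat, LHCA2 to 18 and 165, and the photosystem subunit PSAH2 to 33 and 231. Carbon fixation had 13 of 35 copies higher in the coat and 2 in the embryo proper, against 19 and 1 of 46 for antenna proteins and 48 and 6 of 105 for photosystem subunits. The small subunit gene RBCS1B was close, at 573 and 610 FPKM. In 114 copies neither side passed the rule, and the peripheral endosperm exceeded both, with 5459 FPKM of RBCS1B. GLK2, a factor that turns on chloroplast genes, stood at 6 and 0 FPKM.

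Starch genes had 30 of 72 copies (41.7%) higher in the coat and 11 (15.3%) in the embryo proper, against 19.5% and 23.5% of all genes. GPT2, which brings glucose phosphate into the plastid, had the largest difference of the list's genes at 21 and 589 FPKM. The synthase GBSS1, which makes amylose, stood at 36 and 233 FPKM and APS1, the small subunit of the first committed enzyme, at 29 and 147. The breakdown genes PHS1 and PHS2, alpha-glucan phosphorylases, stood at 48 and 8 FPKM in the embryo proper and 204 and 63 in the coat. The inner seed coat held more of GPT2, APS1 and PHS1, with 970, 297 and 353 FPKM.

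Of 55 copies of jasmonate, heat and wound genes, 29 were higher in the coat and 2 in the embryo proper. Jasmonate synthesis and repressor genes made up 19 of them, out of 26 copies compared: LOX2, the lipoxygenase at its entry, summed to 3 FPKM in the embryo proper and 510 in the coat, LOX3 to 0 and 56, the allene oxide synthase AOS to 5 and 32 and OPR3 to 4 and 55. JAZ repressors were less one-sided, with JAZ10 at 211 and 393 FPKM and JAZ1 at 31 and 46. Touch and wound genes had 6 of 15 copies higher in the coat and 0 in the embryo proper. ZAT12 stood at 0 and 34 FPKM, against 918 in the whole seed, and ZAT10 at 0 and 27, against 276.

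Other hormone genes were few. Of 34 copies for brassinosteroid, gibberellin and abscisic acid, 10 (29.4%) were higher in the coat and 1 (2.94%) in the embryo proper. The shares of all genes were 19.5% and 23.5%. The brassinosteroid synthesis genes CPD and DWF4 stood at 3 and 18 FPKM in the embryo proper and 119 and 42 in the coat. The receptor BRI1 (11 and 13 FPKM) and the factor BZR1 (24 and 26) were level. CYP707A1, which breaks down abscisic acid, was at 0 and 13 FPKM.

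For sugar and amino acid supply few copies passed the rule: 5 of 54 (9.26%) were higher in the embryo proper and 7 (12.96%) in the outer seed coat. The shares of all genes were 23.5% and 19.5%. The median value of these copies was 1 FPKM in each column, below the floor of 5 FPKM. The low counts therefore do not show that levels were similar. UMAMIT11, an amino acid exporter, stood at 0 and 44 FPKM and the permease AAP1 at 5 and 73, whereas AAP8 stood at 28 and 3. The exporter SWEET5 was at 13 and 0 FPKM. Aquaporins had 13 of 49 copies higher in the embryo proper and 16 in the coat: PIP2;6 stood at 73 and 1 FPKM and TIP1;2 at 34 and 12, while PIP1;2 stood at 92 and 1198 and PIP2;7 was close at 323 and 377. Few copies (11) were compared for programmed cell death, of which 3 (27.3%) were higher in the coat and 0 in the embryo proper. They included the processing enzyme dVPE at 75 and 490 FPKM, against 37280 in the inner seed coat. Of 7 suberin copies, 2 were higher in the embryo proper, both of CYP86B1, at 17 and 1 FPKM in sum.

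Beyond the lists, many of the largest differences lay in short gene models, whose FPKM rests on few bases. Models under 300 bases were 1.77% of all compared genes (825), but 22.0% (64) of the 291 genes at least 32-fold higher in the embryo proper and 12.2% (88) of the 719 at least 32-fold higher in the coat. The most extreme, BnaA10g03780D, has 66 bases and no description, with 11574 FPKM in the embryo column and 0 in the remaining 7. The part of model length in these differences was not tested. The largest differences toward the embryo proper among described genes were those of BnaC09g49390D, annotated as a subunit of translation initiation factor 3 in a model of 96 bases, at 4253 FPKM against 0, the glycine-rich protein BnaA03g37230D (1423 and 0) and the lipid transfer protein BnaC01g07530D (1155 and 0). They were followed by the glycine-rich protein BnaC03g43520D (886 and 0), the seed protein BnaA08g02780D (720 and 0), the UPF0497 family protein BnaC04g25530D (556 and 0) and the dirigent-like protein BnaA01g37120D (437 and 0). Both copies of the wall protein AGP31 were on this side, BnaA07g08530D at 545 and 1 FPKM and BnaC07g10580D at 308 and 0. The factor 3 gene was at 0 in the whole seed and at 39 FPKM in the chalazal endosperm, its other detected column. The 2 glycine-rich genes stood at 26 and 16 FPKM in the whole seed.

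Toward the outer seed coat, the largest were the pectin methylesterase inhibitor BnaAnng40020D, a model of 81 bases, at 0 and 1292 FPKM, the TRAF-like protein BnaCnng10870D at 0 and 1280, and the lipid transfer protein LTP6 copy BnaC05g43760D at 0 and 1108. The lipase BnaA06g01430D and the gibberellin-regulated protein BnaC03g11560D both stood at 0 and 1031 FPKM. The pectin methylesterase inhibitor was at 0 in each of the other 6 columns, the whole seed included. The lipase was as high in the inner seed coat, at 1131 FPKM, and reached 1081 in the whole seed. By level, the coat column was led, after the undescribed BnaC02g36110D, by the Kunitz protease inhibitor BnaA07g30010D at 11922 FPKM (66 in the embryo proper and 19085 in the inner seed coat), followed by the MLP-like protein BnaAnng33440D at 5294 against 242. LTP2, a lipid transfer protein (BnaAnng27610D), was among the highest in both, at 1169 and 2644 FPKM.

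Among families read from the authors' descriptions, set against the 19.5% of all compared genes that were higher in the coat and the 23.5% higher in the embryo proper, peroxidases had 20 of 48 copies (41.7%) higher in the coat and 2 (4.17%) in the embryo proper. They summed to 227 FPKM in the embryo proper and 3647 in the coat. Cytochrome P450s had 55 of 195 (28.2%) and 23 (11.8%), and late embryogenesis abundant proteins 28 of 75 (37.3%) and 6 (8%). For UDP-glycosyltransferases the coat share, 32 of 133 (24.1%), was closer to that of all genes, with 15 (11.3%) in the embryo proper. MADS-box proteins had 36 of 104 (34.6%) higher in the coat and 16 (15.4%) in the embryo proper, against 8 of 94 (8.51%) and 31 (33.0%) for WRKY factors. Lipid transfer proteins exceeded the shares of all genes on both sides, with 35 of 90 (38.9%) in the coat and 30 (33.3%) in the embryo proper, and so did GDSL lipases, with 27 of 81 (33.3%) and 25 (30.9%). Leucine-rich repeat proteins were below them on both sides, with 44 of 348 (12.6%) higher in the coat and 70 in the embryo proper as deposited, and 51 and 47 when the columns were scaled to a common median.

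For 6083 Arabidopsis loci a single A copy and a single C copy were compared, taken here as putative homeolog pairs. Taken singly, 1499 A copies and 1426 C copies of these pairs were higher in the embryo proper, and 1128 and 1223 in the coat. Both copies were higher in the embryo proper in 665 pairs and higher in the coat in 518. The copies passed the rule in opposite directions in 237. In 2436 pairs 1 copy passed and the other did not, and in 2227 neither did. The pair for a dormancy-associated protein was opposite, with the A copy BnaA09g27350D at 50 and 2 FPKM and the C copy BnaC05g21780D at 0 and 13. The pair for a SWIB-domain protein was opposite too, with BnaA05g32850D at 26 and 1 FPKM and BnaC05g48150D at 3 and 69. How reads were shared between near-identical copies is not given in the sources used here, so the value of a copy is less certain than the sum over copies. Of genes higher in the embryo proper 49.5% lay on the A subgenome, and of those higher in the coat 46.1%, against 47.7% of all compared genes.

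**Figure D5:**
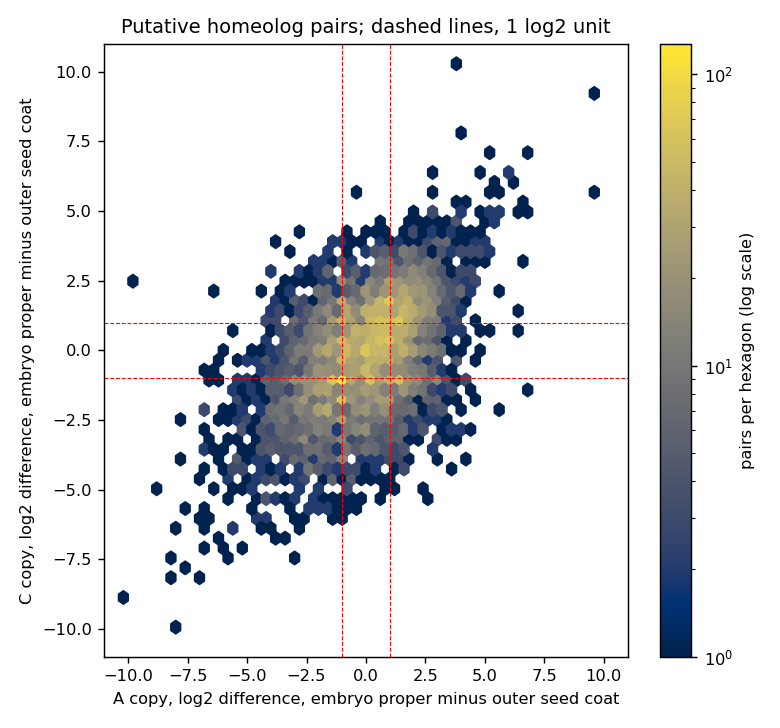
Each hexagon counts putative homeolog pairs by the log2 difference, embryo proper minus outer seed coat, of the A copy (across) and the C copy (upward); dashed lines mark 1 log2 unit. The 665 pairs higher in the embryo proper lie in the upper right corner and the 518 higher in the outer seed coat in the lower left, while the 237 opposite pairs lie in the other corners; all of these also reach 5 FPKM in the higher column.

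Of the genes higher in the embryo proper than in the coat, 7500 (68.8%) had their highest value of the 7 compartments in the embryo proper alone and 1310 in the micropylar endosperm, which surrounds the embryo. Of those higher in the coat, 3305 (36.4%) were highest in the outer seed coat alone, 1389 (15.3%) in the inner seed coat and 1565 (17.2%) in the chalazal proliferating tissue. In the intact whole seed, genes higher in the embryo proper had a median of 3 FPKM and 4422 (40.6%) reached 5, while genes higher in the coat had a median of 11 FPKM and 6762 (74.5%) reached 5. Their medians in their own tissue were both 14 FPKM. The whole seed column is of another makeup: its 10 highest genes held 4.18% of its FPKM, against 25.6% in the embryo proper and 10.9% in the outer seed coat. The part of that in these levels was not tested. LEC1 stood at 1 FPKM in the whole seed, WOX2 and BBM at 0, and STK at 696.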

How the data were processed

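The data are 1 table of 8 columns for 101040 genes, of which 593 without compartment values were left out. Its unit is a score: FPKM in whole numbers, rounded by the authors and deposited as 1 combined column per group. How libraries were combined is not stated, so depth and replicate error are unknown. Gene length in bases, of other unit, was deposited in the same table. A further 1 column matched no sample and was not used. The whole seed heading names no unit and was read as FPKM. Trimmomatic 0.36, HISAT2 and Cufflinks are named in the submitters' processing notes, and an Ambion RNA reagent and a NuGen Ultralow kit per the labels' protocols. The genome build is not given in the sources used here.

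The difference was log2(FPKM + 1), embryo proper minus outer seed coat. The 29 gene lists (616 Arabidopsis loci, 596 with a copy in the table), the families and the comparison itself were chosen with earlier results of these data known. The lists were applied through the authors' best Arabidopsis match, which 45017 compared genes have. Named genes were up to 4 copies per list and direction with the largest difference, for epidermis, cuticle, DNA replication and mitosis also the 4 with the highest smaller value, the 10 highest and lowest differences among described genes, the 10 highest values per column, and listed genes by their sums over copies. Other genes named were chosen after their values were seen. No fold is given against a column listed at 0. The planned limma test could not be run on 1 column per group. The code was tested on simulated data. Alternatives were a pseudocount of 0.1, other filters and floors, and 3 scalings, quantile, common median and common sum. Computation used pandas 2.3.3 and numpy 2.4.6 under Python 3.11.15, with matplotlib 3.10.9 for plots.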

Additional observations from a re-analysis of the deposited data

How the results depend on the processing

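With a filter of at least 5 FPKM in both columns, 3551 genes were higher in the embryo proper and 2229 in the outer seed coat, and 360 homeolog pairs differed the same way, against 1183 as reported. With a floor of 20 FPKM these were 3900, 3404 and 332. With no floor, 14920 genes, 17265 genes and 2232 pairs were counted, and with no filter on low values 705 pairs, since more loci then have further copies. Quantile normalisation gave 9775 and 9552 genes, a common median 7537 and 10390, and a common sum that leaves out rRNA and organelle genes 10284 and 10801, with a shift of -0.18 in the median of all genes. The undescribed BnaC02g36110D, at 123547 and 21065 FPKM, stayed in that sum, and its part in the shift was not tested. In each of these settings 0 genes were counted in opposite directions to those reported. A filter, floor or pseudocount cannot change the sign of a difference, so for those this count was fixed in advance. The shifts from the common median and common sum were also too small to turn a counted gene round. The shared set numbered 671 genes without the micropylar endosperm, 132 at 4-fold and 771 under the common sum, settings chosen after seeing the data. Under the filter of 5 FPKM in both columns, which leaves fewer copies, 4 list medians changed sign: brassinosteroid, gibberellin and abscisic acid to 0.12, cell cycle brakes to 0.55, housekeeping to 0.035 and vascular markers to -1.69. Of 224 named genes, 211 stayed on the same side of the rule under the pseudocount and 3 scalings and 0 reversed. Many of them were named for large differences in these same values, so this says little about other genes. With values summed over copies, 4248 of 16548 loci (25.7%) were higher in the embryo proper and 3567 (21.6%) in the coat. No paired analysis was possible because the table holds 1 combined column per group, which also meant that no replicate could be left out. FPKM in whole numbers makes values under about 5 coarse.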
